A study of Mus musculus with 6 samples.

Results

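The immunoglobulin variable (V) segment genes of the mouse heavy chain locus (Ighv) and of the kappa (Igkv) and lambda (Iglv) light chain loci were followed in RNA from sorted heart scar cells. A segment was kept when its symbol began with Ighv, Igkv or Iglv and its estimated counts summed to 10 or more over the 6 libraries. The members were therefore chosen by their own abundance, without regard to genotype. Of the 281 V identifiers among the 42256 genes of the table, 153 met the rule. They comprised 77 of 175 Ighv, 73 of 103 Igkv and all 3 Iglv segments. A further 24 segments had 1 to 9 counts and 104 had 0. None of the 153 members is annotated as a pseudogene. The members held 78342 counts, and the V segments under the minimum held 98.

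The libraries were made from PDGFRa+ cells that were sorted by flow cytometry from collagenase-digested scar of hearts taken 7 days after injury, in mice of Mixed 129S2/C57Bl6 strain. The 2 control libraries had the genotype Htr2bfl/fl, with loxP-flanked Htr2b and no Cre. The 4 Htr2b_cKO libraries had the genotype Htr2bfl/flPostnMCM/+, which adds a tamoxifen-inducible Cre at one allele of Postn, a gene of activated fibroblasts. Tamoxifen was given in the chow to both groups, starting 1 week ahead and lasting throughout, so the groups share the drug and the floxed alleles. Loss of Htr2b, the Cre and the changed Postn allele cannot be told apart in this design. Animals are the unit the series describes, and each library was taken as 1 animal.

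A B cell joins one heavy chain V segment to a D and a J segment, and one light chain V segment to a J segment, and its descendants transcribe the joined gene. Each V segment therefore tags the RNA of those B cells and plasma cells that chose it, and plasma cells, which secrete antibody, carry far more of this RNA than resting B cells. Fibroblasts do not rearrange these loci. A repertoire spread evenly over many segments is what a mixed population of B cells can give. A repertoire held by few segments can come from few clones, from clones that chose alike, or from few cells rich in this RNA. Segment shares are therefore shares of RNA and not numbers of clones. In bulk RNA, fewer cells of a type and less RNA per cell cannot be told apart.

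The results turn on one heavy and one light chain segment, Ighv11-2 and Igkv14-126. As background, this heavy and kappa pairing (VH11 with Vk9) is known from B-1 cells, a self-renewing B cell class of the body cavities, in antibodies to phosphatidylcholine. Ighv12-3 with Igkv4-91 (VH12 with Vk4) is the other pairing known for that antigen. The coding end of the V exon of the leading pair is shown because these bases carry the identity that counting depends on. Sequences and positions are from the mm10 (GRCm38) genome with the GENCODE M21 annotation, written 5′ to 3′ on the gene's strand. Capitals mark the codons for tyrosine, tyrosine or phenylalanine, and cysteine that precede the antigen-contacting CDR3 loop. Ighv11-2 lies at chr12:114048241-114048540, minus strand, and Igkv14-126 at chr6:67896345-67896642, plus strand.
Ighv11-2: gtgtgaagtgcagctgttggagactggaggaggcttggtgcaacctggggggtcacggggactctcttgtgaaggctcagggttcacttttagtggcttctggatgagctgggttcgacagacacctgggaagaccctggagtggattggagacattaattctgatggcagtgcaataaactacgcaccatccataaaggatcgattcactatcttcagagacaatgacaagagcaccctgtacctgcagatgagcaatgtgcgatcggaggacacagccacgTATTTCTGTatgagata
Igkv14-126: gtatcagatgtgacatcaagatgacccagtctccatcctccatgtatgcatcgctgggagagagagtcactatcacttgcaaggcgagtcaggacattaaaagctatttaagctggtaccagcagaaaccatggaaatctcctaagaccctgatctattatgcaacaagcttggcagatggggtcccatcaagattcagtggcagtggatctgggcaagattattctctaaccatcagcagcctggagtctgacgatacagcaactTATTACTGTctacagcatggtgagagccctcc

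Reads are shared between V segments only as far as their sequences are alike, so the last 270 coding bases of each member were compared with those of the other V segments, members or not, over 215 segments in all. The median identity of a member to its nearest other segment was 95.2%. For 15 of the 153 members it was 98% or more, and their separate counts are uncertain. For 3 of these 15 the nearest segment was under the count minimum. Ighv1-71 and Ighv1-62-2 were identical over this stretch and held 19 and 18 counts. Ighv11-2 was 98.9% identical to Ighv11-1, yet 12272 counts were assigned to Ighv11-2 and 37 to Ighv11-1. Igkv14-126 was 90.4% identical to its nearest segment, Igkv14-111, which held 510 counts against 12167. The last 90 coding bases of both comparisons are shown with the differing bases in capitals. They lie at chr12:114048241-114048330 and chr12:113981879-113981968 (minus strand) for the heavy chain pair and at chr6:67896553-67896642 and chr6:68256780-68256869 (plus strand) for the kappa pair.
Ighv11-2: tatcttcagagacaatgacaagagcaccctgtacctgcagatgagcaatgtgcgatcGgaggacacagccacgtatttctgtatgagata
Ighv11-1: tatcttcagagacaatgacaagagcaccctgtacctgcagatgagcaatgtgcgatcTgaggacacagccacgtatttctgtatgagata
Igkv14-126: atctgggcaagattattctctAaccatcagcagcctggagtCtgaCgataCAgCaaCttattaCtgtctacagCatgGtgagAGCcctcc
Igkv14-111: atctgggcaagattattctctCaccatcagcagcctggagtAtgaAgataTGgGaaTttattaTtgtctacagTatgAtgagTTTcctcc

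Of the 153 members, 149 carry the conserved codons near the coding end, with a median of 14 bases after the cysteine codon. The same 90-base end is shown for 5 other segments that recur in the results, again with those codons in capitals. Ighv12-3 (chr12:114366521-114366610, minus strand) and Igkv4-91 (chr6:68768555-68768644, minus strand) form the second pairing. Igkv1-117 (chr6:68121738-68121827, plus strand) led 1 control library. Iglv1 (chr16:19085017-19085106, minus strand) led lambda everywhere, and Ighv4-1 (chr12:113948282-113948371, minus strand) was the member that passed the test between genotypes.
Ighv12-3: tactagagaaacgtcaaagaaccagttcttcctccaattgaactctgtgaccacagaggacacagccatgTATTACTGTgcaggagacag
Igkv4-91: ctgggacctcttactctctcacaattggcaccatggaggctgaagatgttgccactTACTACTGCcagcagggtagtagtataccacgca
Igkv1-117: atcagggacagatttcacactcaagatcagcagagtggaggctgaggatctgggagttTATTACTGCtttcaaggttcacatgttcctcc
Iglv1: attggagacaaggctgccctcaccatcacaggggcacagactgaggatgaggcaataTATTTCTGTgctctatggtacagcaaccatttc
Ighv4-1: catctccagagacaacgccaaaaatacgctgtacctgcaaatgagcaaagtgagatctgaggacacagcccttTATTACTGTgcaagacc

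Library totals ran from 28533427 to 37392496 counts. The fibroblast marker list, led by Col3a1 and Col1a1, summed to 77740 to 130300 CPM (counts per 1000000 counts of the library, with library sizes scaled by TMM), so the sorted cells carried the markers of their label. Htr2b, the targeted gene, was low throughout, with 0.338 CPM in control 1, 0.253 CPM in control 2, and 0, 0.0903, 0.875 and 0.119 CPM in Htr2b_cKO 1 to 4. The library labelled Htr2b_cKO 3 lay above both controls, and gene-level counts cannot show whether the floxed exon was removed. Htr2b_cKO 4 was the only library with Ddx3y, a Y-linked gene, above 1 CPM, at 65.6 CPM. Xist, which female cells express, stood at 0.267 CPM in Htr2b_cKO 4 and at 385 to 770 CPM in the others. By these genes Htr2b_cKO 4 was male and the other libraries, both controls included, were female. The part of sex in the values of Htr2b_cKO 4 was not tested. Results are given with and without Htr2b_cKO 3 and Htr2b_cKO 4 where these decide a value.

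V segment RNA was high in both control libraries and in Htr2b_cKO 4, and low in Htr2b_cKO 1, 2 and 3. The members held 27008 counts in control 1 and 19208 in control 2. In Htr2b_cKO 1, 2, 3 and 4 they held 2321, 3760, 6021 and 20024 counts. As a share of the library this was 0.0722% and 0.0672% in the controls and 0.00813%, 0.0113%, 0.0191% and 0.0575% in Htr2b_cKO. The summed level was 702 and 694 CPM in the controls, and 82.7, 113, 182 and 594 CPM in Htr2b_cKO. All 4 Htr2b_cKO libraries lay below both controls, but Htr2b_cKO 4 lay far nearer to the controls than to the others of its group. The mean was 698 ± 5.78 CPM (SD, n = 2) in control and 243 ± 238 CPM (SD, n = 4) in Htr2b_cKO, a difference of -455 CPM. A two-sided exact permutation test over the 15 splits gave p = 0.0667, the smallest it can give with 2 against 4 libraries, and 0.4 after Benjamini-Hochberg adjustment over the 6 repertoire measures. Without Htr2b_cKO 4 the difference was -573 CPM, and without Htr2b_cKO 3 it was -435 CPM.

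The 3 loci followed the same order of libraries in part. Summed Ighv levels were 256 and 306 CPM in the controls and 30.7, 45.6, 72.1 and 236 CPM in Htr2b_cKO 1 to 4. Summed Igkv levels were 410 and 341 CPM in the controls and 51.1, 61.2, 97.8 and 314 CPM in Htr2b_cKO. For both loci all 4 Htr2b_cKO libraries lay below both controls. Iglv levels were 37 and 47.2 CPM in the controls and 0.89, 6.41, 11.7 and 44.2 CPM in Htr2b_cKO, so the lambda groups overlapped. The balance between loci was narrow, since Ighv made up 36.4% to 44.1% and Igkv 49.1% to 61.8% of V counts. Lambda made up 5.27% to 7.43% in 5 libraries and 1.08% in Htr2b_cKO 1.

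**Figure D1:**
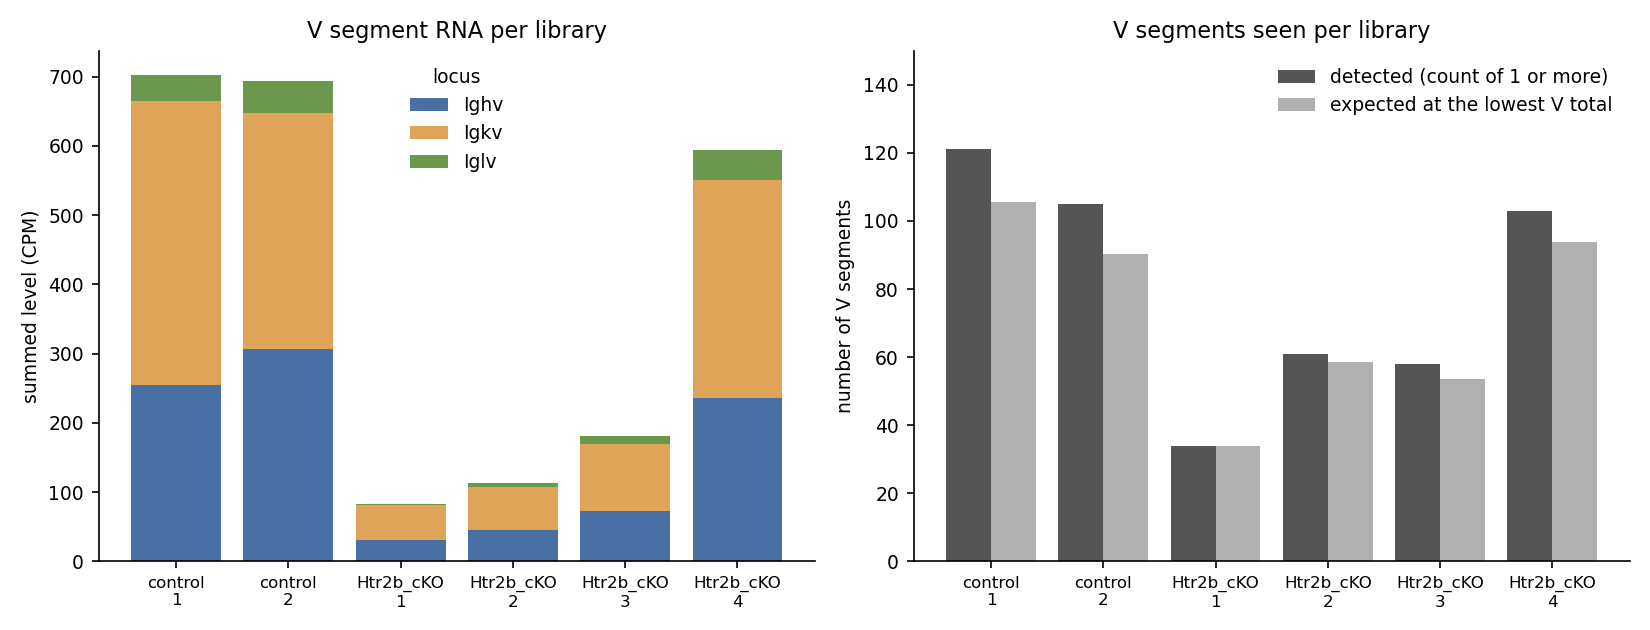
Left, summed V segment level (CPM) of each library as bars stacked by locus; right, number of V segments with a count of 1 or more (dark bars) and the number expected at the lowest V total (light bars). The controls reach 702 and 694 CPM with 121 and 105 segments, and the Htr2b_cKO libraries run from 82.7 to 594 CPM and from 34 to 103 segments.

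Fewer segments were seen in the libraries with less V segment RNA, except that Htr2b_cKO 2 held more than Htr2b_cKO 3. Control 1 and control 2 held counts in 121 and 105 members. Htr2b_cKO 1, 2, 3 and 4 held counts in 34, 61, 58 and 103. The groups did not overlap, although the highest Htr2b_cKO library was only 2 segments below the lower control. Means were 113 ± 11.3 (SD, n = 2) and 64 ± 28.7 (SD, n = 4), a difference of -49 segments, with p = 0.2 in the two-sided exact permutation test and 0.534 after adjustment.

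More counts show more segments, so the number expected in a draw of 2321 V counts, the lowest total, was computed for each library. It was 105 and 90.4 in the controls and 34, 58.7, 53.7 and 93.8 in Htr2b_cKO 1 to 4. At this equal depth Htr2b_cKO 4 lay above control 2, and the groups overlapped. The difference was -37.9 segments, with an exact permutation p of 0.267 and an adjusted value of 0.534. It was -49.1 without Htr2b_cKO 4 and -35.8 without Htr2b_cKO 3. The draw treats counts as independent molecules, and the library protocol in the labels names no molecular identifiers, so it covers counting error only.

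The share of the most abundant segment differed between libraries, and the controls lay at its extremes. The most abundant segment of control 1, Igkv1-117, held 8.54% of V counts (Wilson 95% interval 8.21% to 8.88%). In control 2, Ighv11-2 held 26.4% (25.8% to 27.0%). Igkv14-126 led Htr2b_cKO 1 with 21.9% (20.3% to 23.7%), Htr2b_cKO 2 with 14.6% (13.5% to 15.8%) and Htr2b_cKO 3 with 25.1% (24.0% to 26.2%). Ighv11-2 led Htr2b_cKO 4 with 16.7% (16.2% to 17.2%). All 4 Htr2b_cKO values lay between the control values, so the groups overlapped. Mean shares were 17.5% ± 12.6 (SD, n = 2) and 19.6% ± 4.78 (SD, n = 4), with an exact permutation p of 0.8 and an adjusted value of 0.933. The direction of this small difference turned when control 1 was left out, to -6.84 percentage points.

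Evenness was scored as Pielou's index, which is 1 when every segment seen has an equal share. It was 0.835 in control 1 and 0.602 in control 2, the highest and the lowest of the 6 libraries. Htr2b_cKO 1 to 4 scored 0.752, 0.787, 0.67 and 0.763. Means were 0.719 ± 0.165 (SD, n = 2) and 0.743 ± 0.051 (SD, n = 4), with an exact permutation p of 0.933 before and after adjustment. With control 2 left out, the difference between the groups was -0.0918 in place of 0.0245.

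The effective number of segments, the number of equally abundant segments with the same Shannon entropy, was 54.8 and 16.5 in the controls. It was 14.2, 25.5, 15.2 and 34.3 in Htr2b_cKO 1 to 4. The 2 controls therefore differed more between themselves than any 2 Htr2b_cKO libraries did. The group difference was -13.4 (means 35.7 ± 27.1, SD, n = 2, and 22.3 ± 9.51, SD, n = 4), with an exact permutation p of 0.4 and 0.6 after adjustment, and it was 5.80 without control 1. The 10 most abundant segments held 44.4% and 76.2% of V counts in the controls and 79.0%, 64.1%, 78.2% and 58.4% in Htr2b_cKO. The most abundant 2 segments reached 50% of V counts in control 2, and 13 were needed in control 1. Htr2b_cKO 1 to 4 needed 3, 6, 3 and 7.

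**Figure D2:**
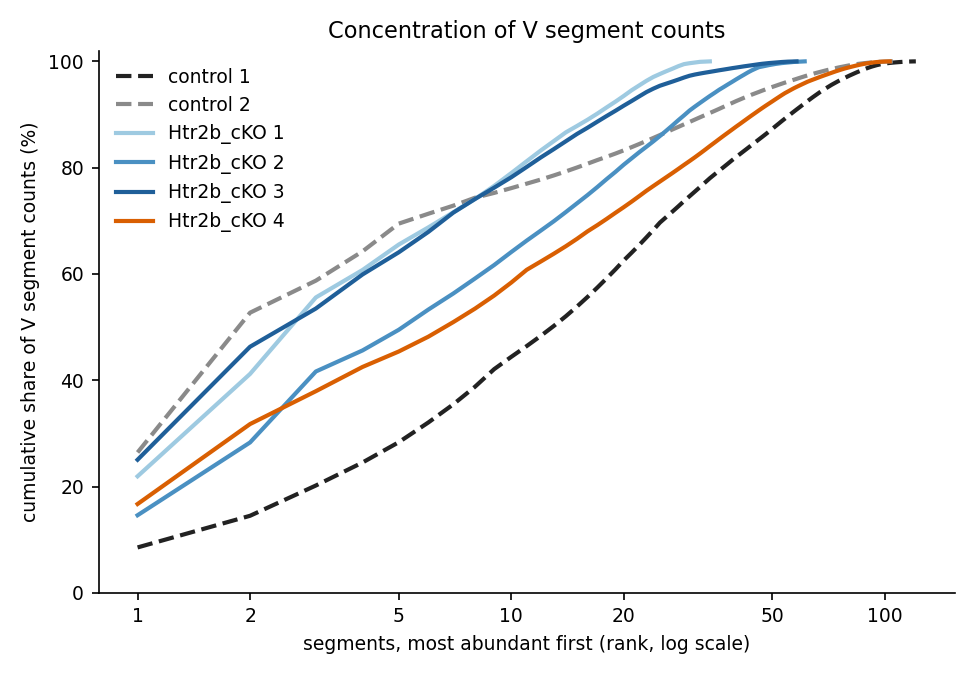
Cumulative share of V segment counts (percent) against the rank of the segment within its library (log axis), with dashed lines for the 2 controls and solid lines for the 4 Htr2b_cKO libraries. At the first segment control 2 is highest, at 26.4%, and control 1 lowest, at 8.54%, with the Htr2b_cKO lines between them.

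Ighv11-2 was the most abundant heavy chain segment in all 6 libraries, and Igkv14-126 the most abundant kappa segment in 5. Ighv11-2 held 1609 and 5074 counts in the controls and 447, 515, 1280 and 3347 in Htr2b_cKO 1 to 4. Igkv14-126 held 1538 and 5051 counts in the controls and 509, 549, 1508 and 3012 in Htr2b_cKO. Control 2 was highest and Htr2b_cKO 1 and 2 lowest for both segments. In control 1 the kappa lead belonged to Igkv1-117, with 2307 counts against 1538.

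The 2 segments, which lie on different chromosomes, held nearly equal counts in every library. The count of Ighv11-2 per count of Igkv14-126 was 1.05 and 1.00 in the controls and 0.878, 0.938, 0.849 and 1.11 in Htr2b_cKO 1 to 4. Within the heavy chain locus, Ighv11-2 held 16.4% and 59.9% of counts in the controls and 51.9%, 34.0%, 53.6% and 42.0% in Htr2b_cKO. Igkv14-126 held 9.76% and 53.5% of kappa counts in the controls and 35.5%, 27.0%, 46.5% and 28.5% in Htr2b_cKO. Together the pair made up 11.7% and 52.7% of V counts in the controls and 41.2%, 28.3%, 46.3% and 31.8% in Htr2b_cKO, so control 1 was the lowest and control 2 the highest. These segments were singled out for their abundance, so their lead is a description.

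In level, Ighv11-2 stood at 41.9 and 183 CPM in the controls and at 15.9, 15.5, 38.6 and 99.4 CPM in Htr2b_cKO. Igkv14-126 stood at 40.0 and 183 CPM in the controls and at 18.1, 16.5, 45.5 and 89.4 CPM in Htr2b_cKO. For both segments, Htr2b_cKO 4 exceeded control 1, and for Igkv14-126 Htr2b_cKO 3 did too. The log2 fold change (Htr2b_cKO minus control, edgeR quasi-likelihood test) was -1.41 (SE 0.93, adjusted p 0.678) for Ighv11-2 and -1.39 (SE 0.87, adjusted p 0.661) for Igkv14-126. Without control 2 these were 0.02 and 0.09, without control 1 they were -2.11 and -2.11, and without Htr2b_cKO 4 they were -2.26 and -2.05. The other 151 members summed to 621 and 328 CPM in the controls and to 48.6, 81.2, 97.6 and 406 CPM in Htr2b_cKO. With the pair removed, therefore, Htr2b_cKO 4 lay between the 2 controls.

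**Figure D3:**
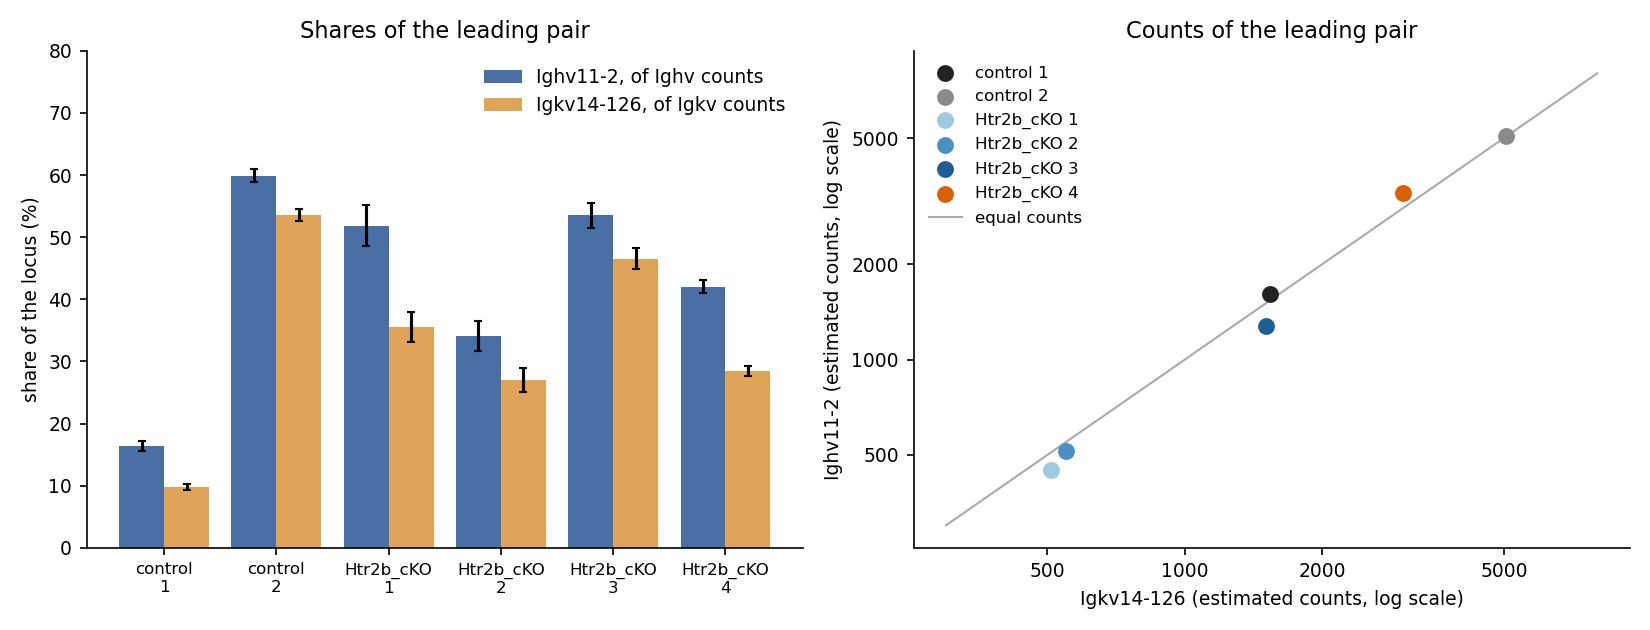
Left, share (percent) of heavy chain V counts held by Ighv11-2 and of kappa V counts held by Igkv14-126 in each library, with Wilson 95% intervals as error bars; right, counts of the 2 segments in each library on log axes, with the line of equal counts. Shares are lowest in control 1 (16.4% and 9.76%) and highest in control 2 (59.9% and 53.5%), and the 6 points lie near the line, with ratios from 0.849 to 1.11.

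Both segments of the second pairing were present in every library at a lower level. For either pairing, gene-level counts cannot show whether the heavy and the kappa segment came from the same cells. Ighv12-3 held 161 and 137 counts in the controls and 28, 26, 39 and 163 in Htr2b_cKO 1 to 4. Igkv4-91 held 375 and 357 counts in the controls and 111, 92, 154 and 282 in Htr2b_cKO. The controls were close to each other for both segments, unlike for the leading pair. Igkv4-91 had a log2 fold change of -1.19 (SE 0.38, edgeR adjusted p 0.41) and Ighv12-3 one of -1.20 (SE 0.66, adjusted p 0.614), and neither passed the test. The heavy to kappa count ratio was 0.429 and 0.384 in the controls and 0.252, 0.283, 0.253 and 0.578 in Htr2b_cKO. The segments of both pairings together made up 13.6% and 55.3% of V counts in the controls and 47.2%, 31.4%, 49.5% and 34.0% in Htr2b_cKO.

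Another pairing known from B-1 cells, Ighv7-1 with Igkv7-33 of T15 antibodies to phosphorylcholine, was patchy and did not occur together in a like way. Ighv7-1 held 130 counts in control 1, 9 in Htr2b_cKO 1, 25 in Htr2b_cKO 2, 125 in Htr2b_cKO 4 and 0 in the others. Igkv7-33 held 28 counts in control 2, 45 in Htr2b_cKO 2 and 0 elsewhere. Ighv1-72 held 237 and 15 counts in the controls and 56, 39, 0 and 141 in Htr2b_cKO 1 to 4.

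The lambda locus of the mouse has few V segments, and all 3 were members. Iglv1 held 924 and 1158 counts in the controls and 25, 143, 386 and 1238 in Htr2b_cKO 1 to 4. Its share of lambda counts ran from 64.9% in control 1 to 100% in Htr2b_cKO 1. Iglv2 held 454 and 142 counts in the controls and 0, 19, 0 and 234 in Htr2b_cKO. Iglv3 held 45 and 6 counts in the controls and 0, 51, 3 and 16 in Htr2b_cKO. The log2 fold change of Iglv1 was -1.28 (SE 1.12, edgeR adjusted p 0.75) and that of Iglv2 -2.15 (SE 1.32, adjusted p 0.652). For Iglv1 it was -2.52 without Htr2b_cKO 4 (adjusted p 0.528), -3.61 without Htr2b_cKO 3 and 4 (adjusted p 0.367) and -0.83 without control 2 (adjusted p 0.882).

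Beyond the leading pair each library had its own prominent segments. In control 1 these were Igkv1-117 and Ighv5-9, with 2307 and 1030 counts. In control 2 they were Ighv1-55 and Igkv12-89, with 1059 and 1002 counts. In Htr2b_cKO 1 Igkv17-121 held 23.3% of kappa counts and Ighv1-69 held 13.9% of heavy chain counts. Htr2b_cKO 2 had Igkv8-16 at 24.7% of kappa, Htr2b_cKO 3 had Igkv6-17 at 13.4% of kappa and Ighv14-1 at 9.67% of heavy chain counts, and Htr2b_cKO 4 had Igkv4-59 at 8.64% of kappa. Each of these second leaders was absent or low in some other library. Ighv5-9 held 1030 counts in control 1, 491 in Htr2b_cKO 4, 89 in Htr2b_cKO 3 and 0 in the other 3 libraries. Igkv8-16 held 387 and 286 counts in the controls, 502 in Htr2b_cKO 2 and 0 in the other Htr2b_cKO libraries. Igkv2-137 held 893 counts in control 1, 41 in Htr2b_cKO 1 and 0 elsewhere.

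**Figure D4:**
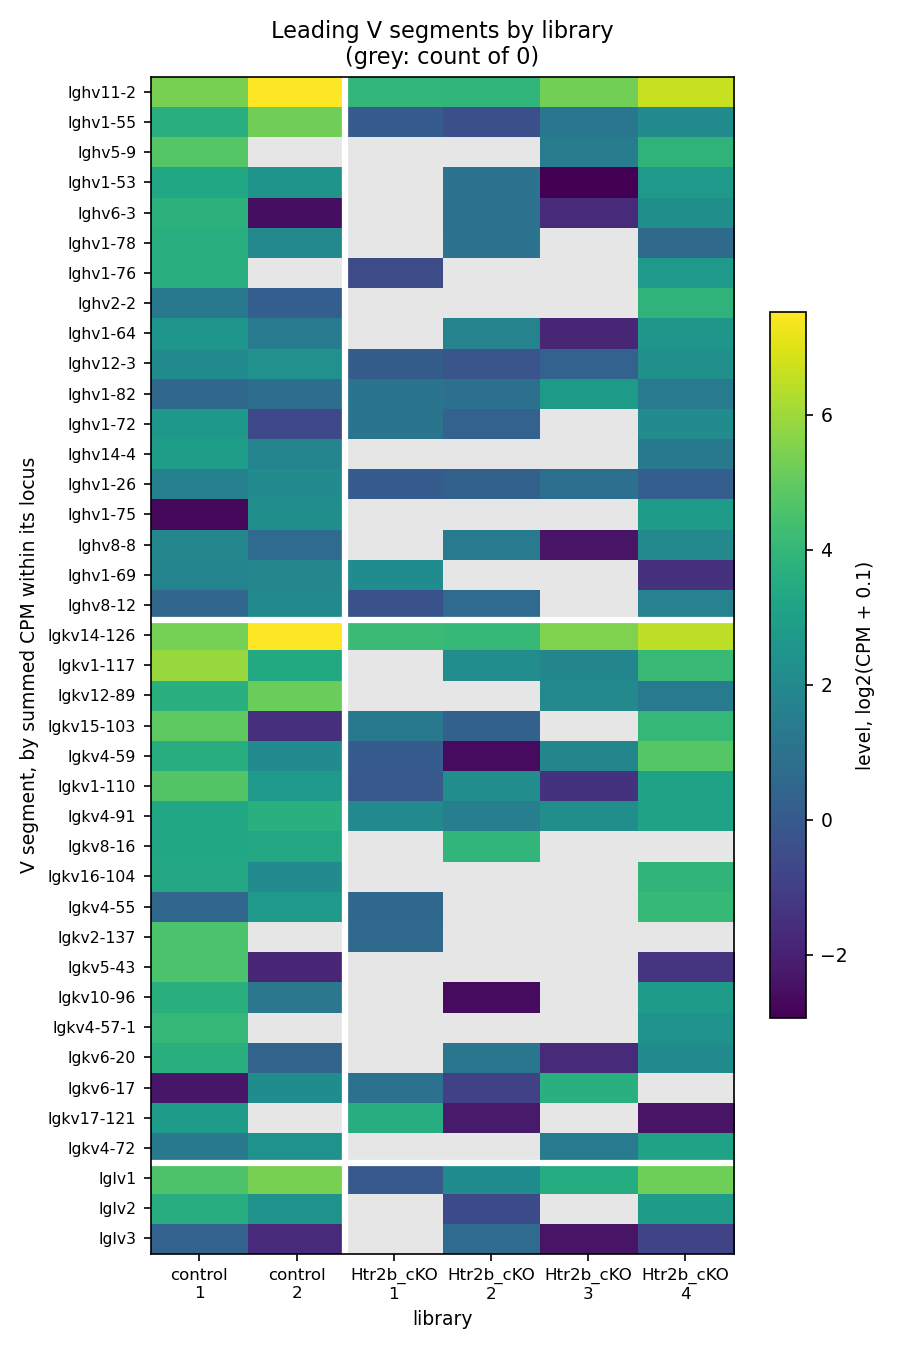
Level of the leading V segments of each locus (colour, log2 of CPM plus 0.1) in the 6 libraries, with grey cells for a count of 0 and white lines between loci and between groups. The rows of Ighv11-2 and Igkv14-126 are filled in all 6 columns, and those of Ighv5-9 and Igkv8-16 are grey in 3.

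Only 11 of the 153 members had counts in all 6 libraries, namely Ighv11-2, Ighv12-3, Ighv1-26, Ighv1-55, Ighv1-82, Igkv14-126, Igkv4-91, Igkv1-110, Igkv4-59, Igkv6-15 and Iglv1. The segments of both pairings of the phosphatidylcholine type were among them. Counts in 5, 4, 3 and 2 libraries were found for 22, 22, 42 and 36 members, and 20 members were seen in 1 library. In 48 members over 80% of the CPM summed over the libraries came from 1 library. These were 18 members in control 1, 11 in control 2, 13 in Htr2b_cKO 4, and 1, 3 and 2 in Htr2b_cKO 1, 2 and 3. Ighv2-9 held 229 counts in control 1 and 0 elsewhere, Ighv14-1 held 231 in Htr2b_cKO 3 and 0 elsewhere, and Ighv1-18 held 293 in Htr2b_cKO 4 and 3 in Htr2b_cKO 1. These 3 examples were picked after their values were seen. A 0 in a library allows up to 0.078 to 0.108 CPM, the value of 3 counts, for counting error only.

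The repertoires of 2 libraries were compared by the sum of the smaller of each segment's shares, which is 100% for identical shares. The 2 controls overlapped by 38.7%, less than any pair of Htr2b_cKO libraries (41.8% to 55.4%). Pairs of a control with an Htr2b_cKO library overlapped by 31.4% to 66.8%. With Ighv11-2 and Igkv14-126 removed, the control pair overlapped by 40.8%, Htr2b_cKO pairs by 19.9% to 39.1%, and mixed pairs by 21.1% to 51.9%. Removal of the pair thus placed the control pair above every Htr2b_cKO pair. The 2 controls shared 85 segments, which was 70.2% of those in control 1 and 81.0% of those in control 2. The libraries share read assignment but not depth, since V counts ran from 2321 in Htr2b_cKO 1 to 27008 in control 1. The shares were not brought to equal depth, and these overlaps carry no test.

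The members fell into 13 heavy chain and 18 kappa families. The Ighv1 family, the largest with 41 members, held 38.2% and 28.5% of heavy chain counts in the controls and 40.1%, 41.3%, 22.9% and 25.6% in Htr2b_cKO 1 to 4. The Ighv11 family held 16.4% and 60.0% in the controls and 51.9%, 34.2%, 53.9% and 42.2% in Htr2b_cKO, nearly all of it Ighv11-2. In the kappa locus, the Igkv4 family with 16 members held 7.33% to 22.8%. The Igkv1 family held 23.6% of kappa counts in control 1 and 1.74% to 14.5% in the other libraries. Igkv12 held 7.05% and 11.4% in the controls and 3.28%, 0%, 4.04% and 0.851% in Htr2b_cKO, so all 4 lay below both controls. The Igkv9 and Ighv4 families did so too, and the Igkv6 family lay above both controls in all 4. Such families were singled out by their values, and no family share was tested.

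Heavy chain segments are ordered along chromosome 12 away from the constant gene Ighm. The 175 Ighv identifiers were divided by distance into 4 groups of 43 or 44. The nearest group, from 165.5 to 637.1 kb, holds Ighv11-2 at 625.5 kb and 36.1% to 67.5% of heavy chain counts. Its share was lowest in Htr2b_cKO 2 and highest in Htr2b_cKO 3. The farthest group, from 1644.8 to 2558 kb, held 33.1% and 24.8% in the controls and 37.5%, 39.7%, 14.5% and 23.6% in Htr2b_cKO 1 to 4. The 2 middle groups together held the rest. Ighv1-55, the second most abundant heavy chain segment by summed CPM, lies at 1785.4 kb, in the farthest group.

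**Figure D5:**
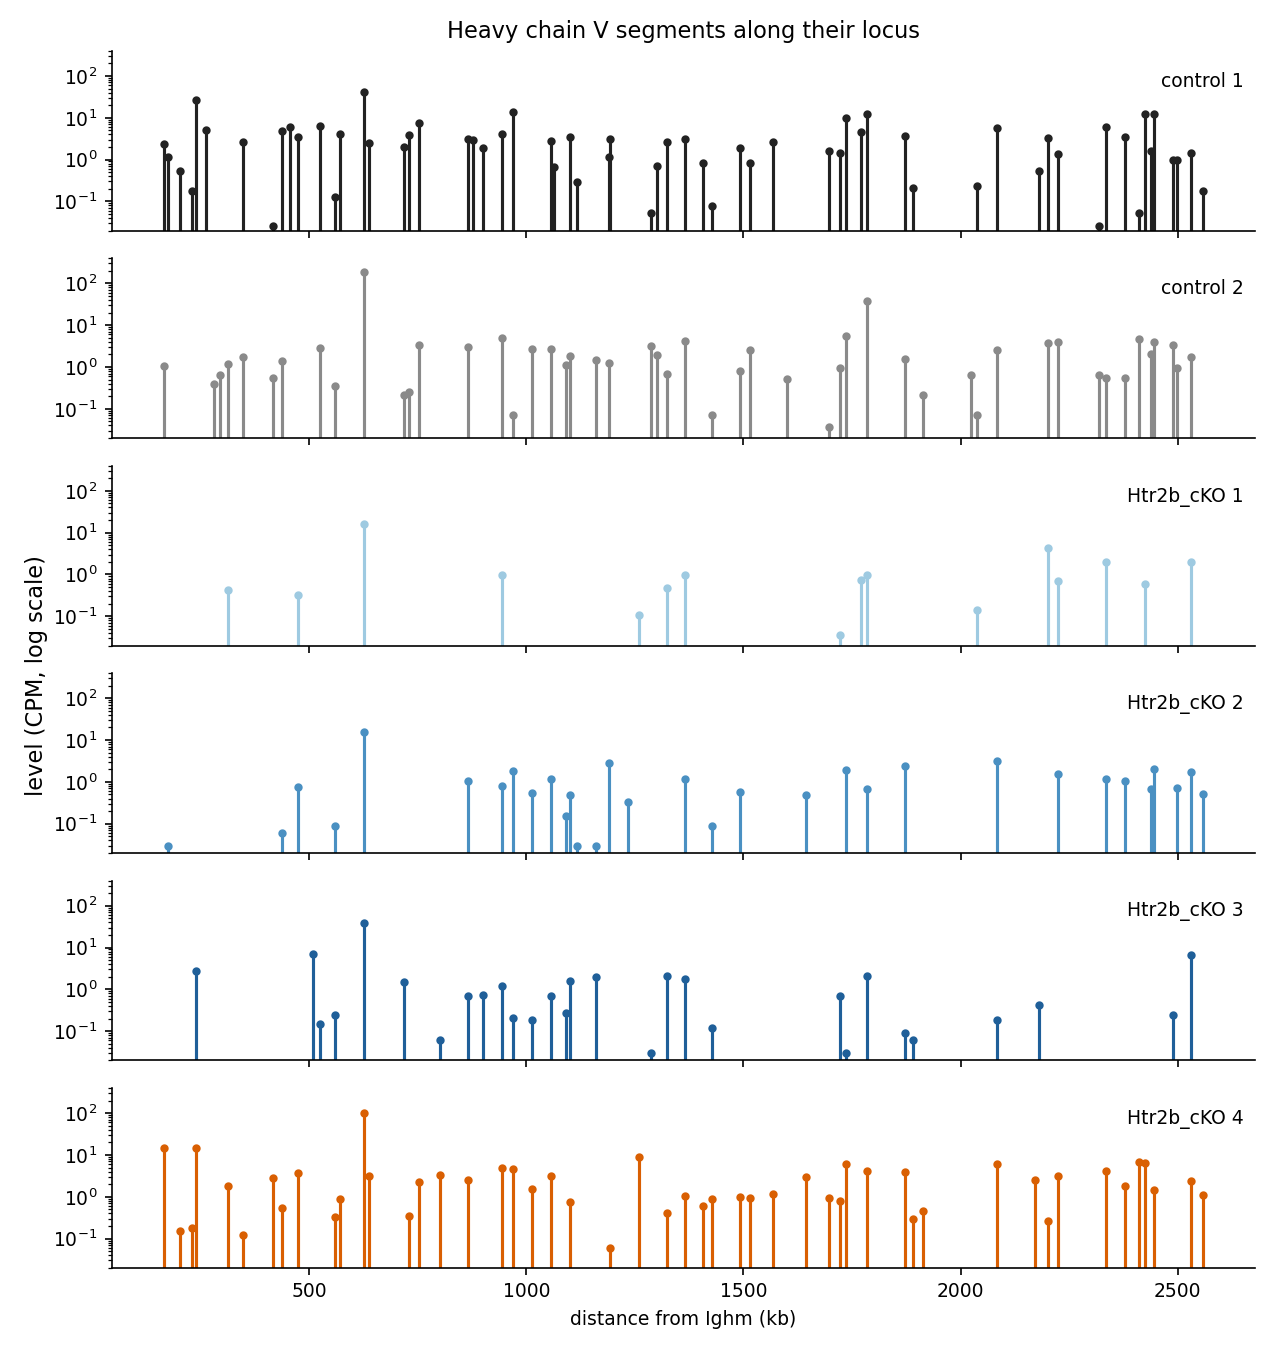
Level (CPM, log axis) of each heavy chain V segment with a count against its distance from Ighm (kb), with 1 panel for each library and 1 stem for each segment. The tallest stem in every panel is Ighv11-2 at 625.5 kb, from 15.5 CPM in Htr2b_cKO 2 to 183 CPM in control 2.

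Single members were tested between the genotypes with edgeR's quasi-likelihood test over 15840 genes. Of the 153 members, 104 passed the filter on low counts and 49 did not. Ighv4-1, the single member of its heavy chain family, was lower in Htr2b_cKO and was the only member with an adjusted p under 0.05. It held 245 and 77 counts in the controls and 0, 0, 5 and 0 in Htr2b_cKO 1 to 4. Ighv4-1 therefore met the count minimum of the rule through its control counts. Its level was 4.58 ± 2.54 CPM (SD, n = 2) in control and 0.0377 ± 0.0754 CPM (SD, n = 4) in Htr2b_cKO. The log2 fold change was -6.77 (SE 0.83, adjusted p 0.023). Across all genes tested, 0.00631% were called lower and 0.0126% higher at this threshold, which is 1 gene and 2 genes. Ighv4-1 is thus the 1 gene called lower among the 15840 genes tested, and no tested member was called higher. The adjusted p was above 0.05 when control 1 was left out (0.739), when Htr2b_cKO 1 (0.0985), 2 (0.118) or 3 (0.181) was, with edgeR's earlier quasi-likelihood fit (0.305) and with DESeq2 (0.185), so the call was lost. The log2 fold change stayed large in these, at -6.02 without control 1, -6.43, -6.37 and -10.24 without Htr2b_cKO 1, 2 and 3, -6.75 with the earlier fit and -6.92 with DESeq2.

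Other members followed the same direction without passing this test. At an unadjusted p under 0.05, 28 of the 104 were lower and 0 higher in Htr2b_cKO, where 2.99% of all genes tested were lower. The fold change was below 0 in 90 of 104 members and in 50% of all genes. The members' median log2 fold change was -1.58, beside 0 over all genes. All 4 Htr2b_cKO libraries lay below both controls in 25 of the 104, and in 9% of all genes. These members come from the same B lineage cells and are not independent of each other. Members almost unseen in Htr2b_cKO, such as Ighv1-20 and Igkv4-53 with 0 there, passed the filters through the controls alone. The counts of members going lower are therefore a description.

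Next after Ighv4-1 by p was Ighv2-9-1, with 100 and 49 counts in the controls and 0, 0, 0 and 4 in Htr2b_cKO (log2 fold change -5.99, SE 0.87, edgeR adjusted p 0.107). Ighv1-80 held 37 and 92 counts in the controls and 0, 0, 8 and 0 in Htr2b_cKO (-4.95, SE 1.02, adjusted p 0.265). Igkv12-41 held 41 and 34 counts in the controls and 0, 0, 0 and 4 in Htr2b_cKO (-5.03, SE 0.99, adjusted p 0.304). These 3 were low or unseen in all 4 Htr2b_cKO libraries, including Htr2b_cKO 4 with its high total. Like Ighv4-1, they met the count minimum of the rule through their control counts. Ighv2-9-1 did pass with no filter on low counts (edgeR adjusted p 0.0285), a setting that called 0.0084% of all genes lower, and with DESeq2 (adjusted p 0.000221), which called 0.123% lower. Igkv12-41 passed with DESeq2 too (adjusted p 0.0379). The most abundant segment among the 10 with the smallest p was Ighv1-55, at 477 and 1059 counts in the controls and 27, 22, 70 and 143 in Htr2b_cKO (-3.63, SE 0.69, adjusted p 0.322), and it passed with DESeq2 (adjusted p 0.0288). The others of these 10 were Ighv5-17, Igkv4-68, Igkv5-39, Igkv3-2 and Ighv1-20, all with fold changes below 0. Fitted fold changes of members with counts of 0 depend on the prior count and are not bounds.

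Of all 153 members, 28 lay below both controls in every Htr2b_cKO library and 1 lay above. Of the 18592 genes in the table with a summed count of 10 or more, 8.55% lay below and 9.54% above in this way. The exception was Ighv1-82, with 55 and 47 counts in the controls and 57, 57, 219 and 81 in Htr2b_cKO 1 to 4. In level it stood at 1.43 and 1.70 CPM in the controls and at 2.03, 1.72, 6.61 and 2.40 CPM in Htr2b_cKO, with a log2 fold change of 1.05 (SE 0.63, edgeR adjusted p 0.637). It was among the 3 most abundant heavy chain segments of Htr2b_cKO 1 and 3. At 0 in all 4 Htr2b_cKO libraries were 18 members, and at 0 in both controls were 12, where 0.307% and 2.42% of those 18592 genes were. A member at 0 in 1 group met the minimum of 10 counts through the other group alone, so these counts are a description. Of the 18, 6 were seen in control 1 alone and 7 in control 2 alone.

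Ighm, Igkc and Jchain were high and low in the same libraries as the V segments. Ighm, the constant gene of IgM, stood at 1041 and 1038 CPM in the controls and at 156, 139, 263 and 878 CPM in Htr2b_cKO 1 to 4. Igkc, the kappa constant gene, stood at 376 and 316 CPM and at 54.6, 49.3, 93.9 and 286 CPM. Jchain, which joins IgM and IgA into polymers, stood at 111 and 142 CPM and at 19.4, 20.2, 29.5 and 101 CPM. For these 3 genes all 4 Htr2b_cKO libraries lay below both controls, as in 8.55% of the genes with a summed count of 10 or more. Ighg2b separated in the same way, and Igha, Ighd, Ighg1, Ighg2c, Ighg3 and Iglc2 did not. None of the 3 passed edgeR's test (adjusted p 0.604, 0.591 and 0.573). V counts per count of the 10 constant genes compared stayed within 0.374 to 0.469 in the 6 libraries. The lambda constant genes Iglc1 and Iglc3 were not found among the genes of the table, so this ratio lacks them. V segment CPM per Jchain CPM lay between 4.26 and 6.32.

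IgM was the most abundant heavy chain class by CPM in every library, and the switched classes differed between libraries. Ighg2b stood at 121 and 29.8 CPM in the controls and at 0, 9.67, 3.38 and 22.3 CPM in Htr2b_cKO 1 to 4. Ighg2c stood at 2.16 and 59.3 CPM and at 0, 7.80, 21.6 and 5.82 CPM. Ighg3 stood at 24.9 and 6.33 CPM and at 0, 7.11, 0.181 and 31.0 CPM. Igha, the IgA constant gene, stood at 95.6 and 61.3 CPM and at 9.33, 26.1, 7.42 and 93.0 CPM. Ighg1 was at 0 in control 1 and Htr2b_cKO 2 and 3, and at 16.2 CPM in control 2. Ighd, the IgD gene of resting B cells, stood at 3.41 and 0.976 CPM in the controls and at 0.677, 0.181, 2.35 and 0.208 CPM in Htr2b_cKO.

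The summed B cell marker list did not follow the V segments in the same order. The 12-gene B cell list, with Cd79a of the antigen receptor and the surface markers Cd37 and Ms4a1, summed to 63.5 and 21.5 CPM in the controls and to 10.2, 21.8, 52.4 and 10.6 CPM in Htr2b_cKO 1 to 4. Of its 12 genes, 5 were at 0 in Htr2b_cKO 1, 2 in Htr2b_cKO 4, and 1 each in control 2 and Htr2b_cKO 2. V segment CPM per CPM of that list was 11.1 and 32.3 in the controls and 8.09, 5.19, 3.47 and 56.1 in Htr2b_cKO, so Htr2b_cKO 4 was highest and Htr2b_cKO 3 lowest. Cd37, which other leukocytes including macrophages also express, made up 36.7% to 65.0% of the list's CPM. Without it, a choice made after seeing the data, the other 11 genes summed to 39.8 and 13.6 CPM in the controls and to 4.70, 7.65, 27.1 and 6.44 CPM in Htr2b_cKO, and V segment CPM per CPM of these was 17.6 and 51.1 in the controls and 17.6, 14.8, 6.70 and 92.3 in Htr2b_cKO. All 11 tested B cell markers had a fold change below 0 and 0 were called, with a median of -1.40 on the log2 scale. Mzb1, a plasma cell protein of antibody assembly, stood at 16.7 and 14.9 CPM in the controls and at 1.89, 2.32, 4.95 and 9.11 CPM in Htr2b_cKO. The 12-gene plasma cell list summed to 388 to 685 CPM and was led by Xbp1 and Sdc1, which other cells also express. Of its 12 genes, 8 had a fold change below 0 and 4 above 0, and 0 were called. Mzb1 is 1 of these 12 genes and does not stand for the list. Sdc1 and Slamf7, for example, had log2 fold changes of 0.06 and 0.42. The part of any B lineage cell type in the V segment result was not tested.

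T cell receptor transcripts were scarce. The 143 T cell receptor V segments together held 10 and 6 counts in the controls and 4, 7, 19 and 10 in Htr2b_cKO 1 to 4. The 10-gene T cell list summed to 9.83 and 6.11 CPM in the controls and to 2.39, 4.55, 7.36 and 4.60 CPM in Htr2b_cKO. Of its 7 tested genes 6 had a fold change below 0, with a median of -0.49 on the log2 scale, and 0 were called. Cd2, an adhesion receptor of that list, stood at 1.80 and 2.02 CPM in the controls and at 0.107, 0.602, 0.724 and 0.356 CPM in Htr2b_cKO. Trac, the T cell receptor alpha constant gene, stood at 1.20 and 0.506 CPM and at 0.107, 0.452, 0.0604 and 0.356 CPM. For both genes all 4 Htr2b_cKO libraries lay below both controls, as in 8.55% of the genes with a summed count of 10 or more. They were picked after their values were seen. Of the same list, Cd3d separated too, at few counts, and Cd3e, Cd3g, Trbc1, Trbc2, Cd4, Cd8a and Lck did not. The part of T cells in the V segment result was not tested. The short D and J segments to which V segments are joined are separate entries of the table. The 24 of the heavy chain held 15 and 4 counts in the controls and 0, 1, 0 and 3 in Htr2b_cKO, and the 5 of the light chains held 0 in every library, so these entries carry almost none of the joined RNA's counts. The 7-gene macrophage list summed to 2018 and 601 CPM in the controls and to 646, 1750, 3471 and 274 CPM in Htr2b_cKO, in another order than the V segments, and its part in the result was not tested.

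At the edge of the rule, the members with the fewest counts were Ighv1-15, Ighv5-12, Igkv10-95 and Igkv12-98 with 11 and Ighv1-7 with 12. Just under the minimum lay Igkv18-36 and Igkv3-1 with 9 each. Igkv18-36 had all 9 in Htr2b_cKO 3, and Ighv5-12 had all 11 in control 2. With every V segment that had a count included, the summed level differed by -455 CPM and the number of segments seen by -49, as for the 153 members.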

How the data were processed

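RNA was sequenced from 6 libraries, 2 control and 4 Htr2b_cKO, grouped by genotype label. The deposited table holds estimated counts per Ensembl gene that the authors did not normalize, all whole numbers and used as they stand, and 0 columns matched no sample. The submitters' processing notes name DRAGEN, DESeq2 and the build mm10, with no version or role, and which annotation and strand setting the counter used was not given in the sources used here. All 42256 identifiers were found in the GENCODE M21 annotation of mm10, which gave symbols, positions and sequences. Totals were 28533427 to 37392496 counts, and chi-square per degree of freedom was 50.4 to 206 over the 15 pairs of libraries, so no library copied another.

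CPM values use TMM-scaled totals. Members were tested with edgeR 4.0.16 in R 4.3.3 (TMM, filterByExpr, robust quasi-likelihood fit in its newer form, Benjamini-Hochberg over 15840 genes, threshold 0.05), and the code was tested on simulated data. Each SE was taken as the log2 fold change over the root of its F statistic. Repertoire measures were compared by two-sided exact permutation over 15 splits with scipy 1.17.1, adjusted over the 6 measures. DESeq2 1.42.0 was an alternative, among other filters, count minimums, scalings and left-out libraries. Members, lists and tests were chosen with earlier results of these data known. Named were Htr2b, the 8 segments of highest summed CPM per locus, the 3 most abundant per library, called members, the 10 smallest p, segments of known B-1 antibodies, Iglv1 to Iglv3, members at the edge of the rule, constant genes, Jchain and leading markers. Not every gene so named is discussed.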

Additional observations from a re-analysis of the deposited data

Results flagged for a closer look

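A library was singled out when its gap to the nearest of the 4 Htr2b_cKO libraries took up more of their range than Dixon's 95% limit allows, which chance gives in about 1 in 20 groups. Of 40 named members, 22 had such a library, in each case a high one, and a segment seen in 1 of the 4 libraries is singled out whatever its level. The named members were chosen in part as the 3 most abundant of each library, so the 1 in 20 is no yardstick for these 22. Htr2b_cKO 4 was the high library for 11 members. They were Igkv4-59 (27.1 CPM), Igkv15-103 (16.4 CPM), Ighv2-2 (14.6 CPM), Iglv2 (6.95 CPM), Ighv1-76 (6.32 CPM), Ighv12-3 (4.84 CPM), Igkv3-2 (1.07 CPM), Igkv4-68 (0.564 CPM), Ighv5-17 (0.534 CPM), and Ighv2-9-1 and Igkv12-41 (0.119 CPM each). Htr2b_cKO 3 was high for 6, namely Igkv6-17 (13.1 CPM), Igkv3-10 (7.57 CPM), Ighv14-1 (6.97 CPM), Ighv1-82 (6.61 CPM), Ighv1-80 (0.241 CPM) and Ighv4-1 (0.151 CPM). Htr2b_cKO 2 was high for Igkv8-16 (15.1 CPM), Ighv1-11 (2.86 CPM) and Igkv7-33 (1.35 CPM), and Htr2b_cKO 1 for Igkv17-121 (11.9 CPM) and Ighv1-69 (4.27 CPM). Of 12 other genes, 5 had such a library. These were Ighm (878 CPM), Jchain (101 CPM), Iglc2 (10.4 CPM) and Ighg1 (3.65 CPM), all high in Htr2b_cKO 4, and Htr2b (0.875 CPM), high in Htr2b_cKO 3. The summed V segment level, the number of segments, the top share, evenness and the shares of the leading pair had no such library.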

How the results depend on the processing

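The summed level kept its direction in all 15 alternatives, the number of segments seen in all 16 and the number at equal depth in all 13. The top segment share difference turned to -0.0782 percentage points with families in place of segments and ran from -6.84 (without control 1) to 11.03 with 1 library left out. The evenness difference ran from -0.0918 (without control 2) to 0.141, and the effective number difference from -32.6 to 5.80 (without control 1). The causes were not tested. The count of called members was 1 as reported, 2 without the low-count filter, 6 with DESeq2, 0 with edgeR's earlier fit (17 of 104 lower at unadjusted p under 0.05, beside 2.45% of all genes), 0 without Htr2b_cKO 3 and 4 together, and 0 to 2 with 1 library left out. Without the filter the 2 were Ighv4-1 and Ighv2-9-1, and of all genes 0.0084% were called lower. With DESeq2, which called 0.123% of all genes lower, the 6 were Ighv1-19, Ighv1-20, Ighv1-55, Ighv2-9-1, Igkv12-41 and Igkv4-53, all lower. With 1 library left out the 2 were Ighv4-1 with Igkv5-43 (without control 2) and with Igkv3-2 (without Htr2b_cKO 4), where 0.0238% and 0.0321% of all genes were called lower. Without control 2 the log2 fold changes of Ighv11-2 and Igkv14-126 turned to 0.0249 and 0.0912, and with 1 library left out they ran down to -2.26 and -2.11. The removal of the leading pair or of Cd37, the merging of near-identical segments and edgeR's earlier fit were chosen after seeing the data, and leaving out pseudogenes changed nothing since no member is one. With 2 controls that differ widely in concentration, share and evenness have no stable control value, and members under about 3 counts in a library are limited by depth.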
